A study of Mus musculus with 10 samples.

Results

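Mice given bone marrow with 1 germline knockout allele of Trp53 and 2 intact copies of Ddx41 formed 1 group (Ddx41+/+ Trp53+/-). They were compared with recipients of marrow intact at both genes (Ddx41+/+ Trp53+/+), and genotypes below are those of the donor marrow. Both groups were recognised by their genotype labels and held 3 mice each, 1 library per mouse, so 6 of the 10 libraries of the series were compared. The other 4 entered the fit, where they helped to set the filter and the spread. The series crossed loss of 1 copy of Ddx41, an RNA helicase gene, with loss of 1 copy of Trp53, and these 4 libraries came from 2 Ddx41+/- Trp53+/+ and 2 Ddx41+/- Trp53+/- mice. RNA sequencing of CD71+Ter119+ bone marrow cells, the R2 stage of red cell precursors, asked how the transcriptome depended on both genes. Every mouse in all 4 genotypes was a lethally irradiated BoyJ recipient of 1000000 bone marrow mononuclear cells from Rosa-CreERT2 donors. Each one received 1 mg tamoxifen in corn oil daily over 2 rounds of 5 days, the Ddx41+/+ mice included, and was killed 8 weeks after transplant. The Trp53 knockout was carried from the germline of the donors and did not depend on Cre, and the marrow of the 6 Ddx41+/+ mice had no floxed Ddx41 allele. The sort that the labels describe used CD71 and Ter119 and no marker of donor origin, so recipient cells that survived irradiation could be included. The knockout allele was made by gene targeting, and the stretch of chromosome 11 around it is inherited with it, so an effect of the allele and an effect of its surroundings cannot be told apart.

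p53, the protein made from Trp53, is a transcription factor that cells hold at a low level, because the ubiquitin ligase Mdm2 marks it for degradation. DNA damage, ribosome faults and other stresses free it from Mdm2, and it then switches on genes for cell cycle arrest, DNA repair and death, and the gene for Mdm2 itself. Red cell precursors divide fast and depend on erythropoietin, which signals through JAK2 and STAT5, and excess p53 in these cells is known for the anaemia of ribosome disorders.

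Between 14590345 and 20283930 reads per Trp53+/+ library and between 10313928 and 17447975 per Trp53+/- library were assigned to genes. Of 24421 genes, 11846 had enough counts to be tested. Levels are given below as CPM (counts scaled to 1000000 per library) after TMM scaling, in the order of replicates 10, 11 and 12 for Trp53+/+ and replicates 22, 23 and 24 for Trp53+/-. A count of 3, taken as the floor of detection, corresponded to between 0.146 and 0.300 CPM in the 6 libraries. Changes are log2 fold changes of Trp53+/- over Trp53+/+ with their standard errors (SE), and p-values are those of edgeR's quasi-likelihood test, adjusted over all tested genes. A gene was called differentially expressed (DEG) where its adjusted p was under 0.05 and the genotypes differed by more than 1.5-fold.

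The libraries carried the erythroid programme at a high level. The 34 listed erythroid and globin genes in the table summed to between 91116 and 98391 CPM in the Trp53+/+ mice and to between 97791 and 100937 CPM in the Trp53+/- mice. None of the 31 that could be tested was a DEG, 27 were higher and 4 lower (50.1% of all tested genes were higher), and their median log2 fold change was 0.06, beside 0.00049 over all tested genes. The log2 fold changes were 0.11 for Tfrc (CD71, the transferrin receptor), 0.03 for Slc4a1 (the anion exchanger band 3), 0.06 for Alas2 (the first enzyme of erythroid haem synthesis), 0.12 for Klf1 and 0.04 for Gata1 (the lineage's transcription factors), and 0.03 for Epor (the erythropoietin receptor). Globin messages, the defining product of the lineage, were almost missing from the table. Hba-a1 lay between 0.105 and 1.28 CPM over the 10 mice, Hbb-bt was at 0 in all of them, and Hba-a2 and Hbb-bs were at or under 0.826 CPM and were not tested. The globin genes share between 57% and 81% of their 75-base stretches with near-identical copies.

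Trp53 mRNA itself lay at 57.4, 57.4 and 58.9 CPM in the Trp53+/+ mice and at 43.1, 41.8 and 44.5 CPM in the Trp53+/- mice. All 3 heterozygous mice were below all 3 intact mice, and the spread within each genotype was small. The mean was 57.9 ± 0.857 (SD, n = 3) against 43.1 ± 1.35 (SD, n = 3), and Trp53 mRNA fell by 25.5% (log2 fold change -0.42, SE 0.0907, adjusted p = 0.0327 by edgeR). An exact two-sided permutation test over the 6 mice gave p = 0.1, which is the smallest value that 3 against 3 mice allow. The adjusted p was 0.0511 when the fit held only the 6 mice of the comparison, and it lay between 0.0625 and 0.12 when any 1 of them was left out. The gene lies at chr11:69580359-69591873 on the plus strand (mm10), and reads from whatever is left of the targeted allele would count towards it. Ddx41 was at 25.1, 21.9 and 22.6 CPM against 26.6, 22.9 and 23.2 CPM, so the genotypes overlapped. Its log2 fold change was 0.06 (SE 0.132, adjusted p = 0.938 by edgeR; exact permutation p = 0.5 over the 6 mice).

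**Figure D1:**
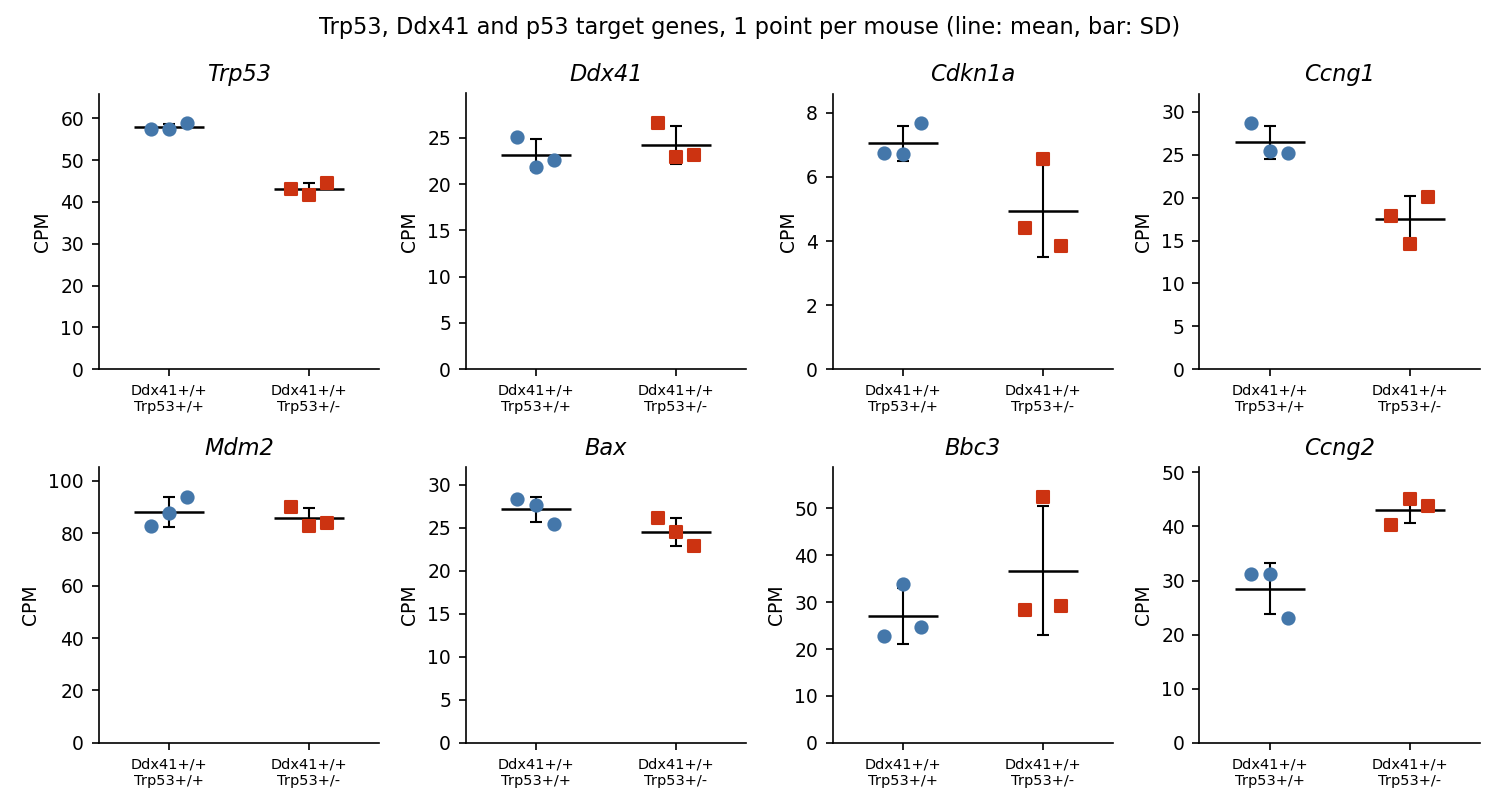
Level in CPM (y axis, from 0) of Trp53, Ddx41 and 6 genes of the p53 network in the 3 Ddx41+/+ Trp53+/+ mice (blue circles) and the 3 Ddx41+/+ Trp53+/- mice (red squares), with the mean as a line and the SD as a bar. Trp53 separates the genotypes at 57.4 to 58.9 against 41.8 to 44.5 CPM, Ccng1 and Ccng2 separate them in opposite directions, and Mdm2 overlaps.

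Over the whole transcriptome 108 genes were DEGs, which is 0.912% of those tested. Of them 100 were higher in the Trp53+/- mice (0.844%) and 8 lower (0.0675%). The values of all 108 did not overlap between the genotypes, a property shared by 14.1% of all tested genes. At an unadjusted p under 0.05 there were 1118 genes (9.44%), and the DEGs that were higher had a median log2 fold change of 1.36. In 70 of these 100 genes the lowest of the 3 Trp53+/+ mice was replicate 11, where 33.6% of all tested genes had their lowest Trp53+/+ value. In 84 of the 100 genes the 4 Ddx41+/- mice, of either Trp53 genotype, also lay above all 3 Ddx41+/+ Trp53+/+ mice, as did 6.02% of all tested genes. Those 3 control mice thus stood low for most of these genes against every other genotype, and because they are shared by all such comparisons, the part of Trp53 heterozygosity in a rise cannot be told from a low control group on these 6 mice alone. The counts leaned on single mice. Without Trp53+/- replicate 24 there were 35 DEGs, 33 higher and 2 lower, and without replicate 23 there were 64 higher and 11 lower. Without Trp53+/+ replicate 11 the total was again 108, but 68 were higher and 40 lower. A fit of the 6 libraries alone called 60 genes higher and 6 lower, all 66 among the 108.

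**Figure D2:**
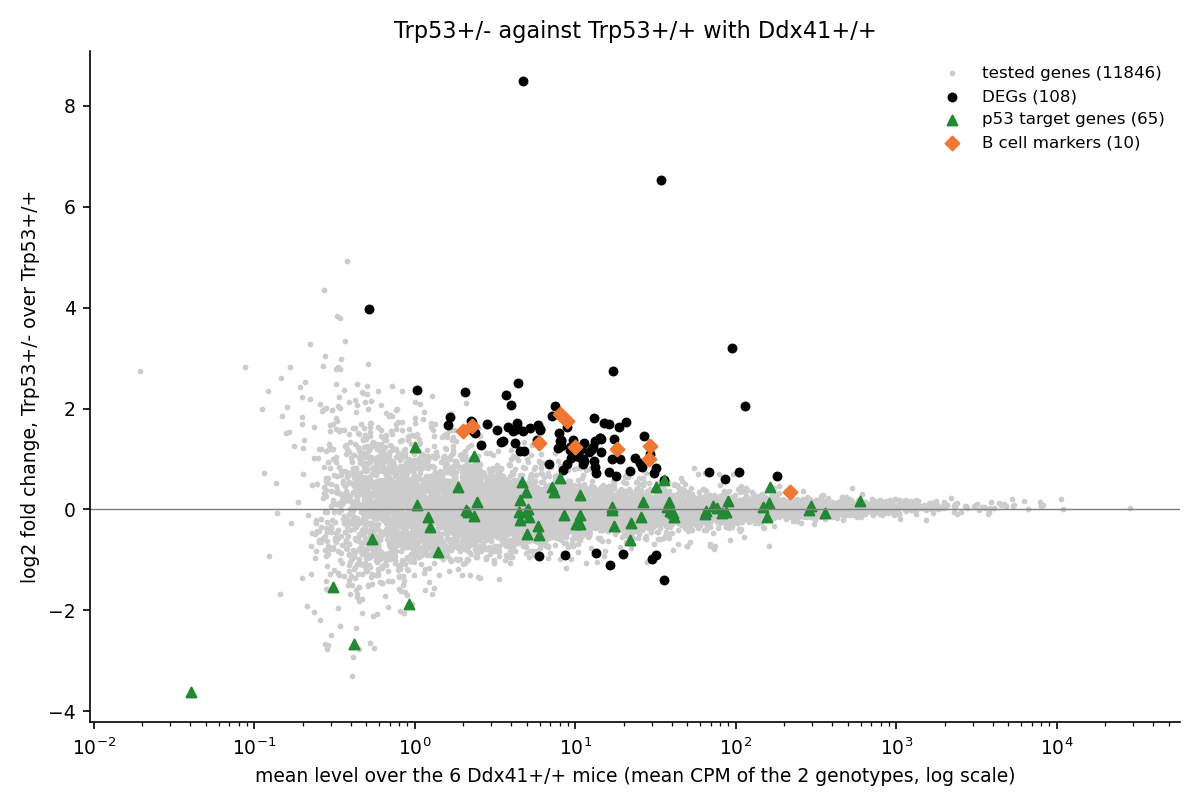
Mean level (x axis, mean CPM of the 2 genotypes, log scale) against the log2 fold change of Trp53+/- over Trp53+/+ (y axis) for the 11846 tested genes (grey), the 108 DEGs (black), 65 tested p53 target genes (green triangles) and 10 B cell markers (orange diamonds). The p53 targets lie on both sides of 0, among them Ccng1 at -0.60 and Ccng2 at 0.59, while all 10 B cell markers lie above it.

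Over the 3 lists of genes that p53 is known to drive, 1 gene was a DEG, an arrest target, beside 0.912% of all tested genes. Of 25 tested targets for arrest and feedback, 14 were higher and 11 lower, with a median log2 fold change of 0.04. In that list 8 genes had an unadjusted p under 0.05 (beside 9.44% of all tested genes) and 10 did not overlap between the genotypes (beside 14.1%). Of 16 tested targets for cell death 4 were higher and 12 lower, of 24 for repair, metabolism and trafficking 9 were higher and 15 lower, and neither list held a DEG (medians -0.07 and -0.06). The arrest list summed to between 1975 and 2092 CPM in the Trp53+/+ mice and to between 2037 and 2298 CPM in the Trp53+/- mice, and the death list to between 723 and 751 CPM against between 702 and 725 CPM.

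Cdkn1a encodes p21, the cyclin-dependent kinase inhibitor through which p53 arrests the cell cycle. It lay at 6.75, 6.71 and 7.68 CPM in the intact mice and at 4.40, 6.55 and 3.84 CPM in the heterozygous mice. The 2 genotypes did not overlap but came close at 6.71 and 6.55 CPM, and the difference did not pass the test (log2 fold change -0.50, SE 0.21, adjusted p = 0.436). Ccng1 (cyclin G1, a p53-induced partner of protein phosphatase PP2A) was at 28.7, 25.5 and 25.2 CPM against 17.9, 14.6 and 20.02 CPM. All its heterozygous values were under all its intact values, and the adjusted p of 0.0588 missed the threshold (log2 fold change -0.60, SE 0.141). The same fold change had an adjusted p of 0.0102 in DESeq2's Wald test and 0.00962 in edgeR's likelihood ratio test. Over all alternatives its log2 fold change lay between -0.71 and -0.48, and its highest adjusted p was 0.252. Zmat3, a p53-induced regulator of splicing, was near the floor at 1.00, 1.21 and 2.14 CPM against 0.300, 0.494 and 0.349 CPM, without overlap (log2 fold change -1.87, adjusted p = 0.168). Mdm2 overlapped, at 82.8, 87.7 and 94.0 CPM against 90.2, 82.9 and 83.9 CPM, with a log2 fold change of -0.04. Other arrest, feedback and damage-sensing genes gave log2 fold changes of 0.16 for Btg2 (an antiproliferative factor), 0.08 for Gadd45a (a growth arrest gene), -0.03 for Sesn2 (sestrin 2, an mTORC1 inhibitor), -0.03 for Trp53inp1, 0.62 for Plk2 (a polo-like kinase), 0.35 for Ddit4 (another mTORC1 inhibitor), and none passed the test. Phlda3, a p53-induced inhibitor of AKT, lay between 0 and 0.830 CPM and is not given as a fold.

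Ccng2, which encodes the related cyclin G2 and is better known as a FOXO target, went the other way. It rose from 31.3, 31.2 and 23.04 CPM to 40.3, 45.1 and 43.8 CPM, and the genotypes did not overlap. With a log2 fold change of 0.59 (SE 0.124, adjusted p = 0.0293) it was the only DEG among the arrest targets, and it lay just over the fold limit. Without Trp53+/+ replicate 12, Trp53+/- replicate 23 or Trp53+/- replicate 24, or in the fit of the 6 libraries, its adjusted p exceeded 0.05, the highest value being 0.134.

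Among the death genes, Bax, the pore-forming effector of mitochondrial apoptosis, was at 28.3, 27.7 and 25.5 CPM against 26.1, 24.5 and 22.9 CPM (log2 fold change -0.15). Bbc3, which encodes PUMA, was at 22.7, 33.9 and 24.6 CPM against 28.4, 52.5 and 29.2 CPM (log2 fold change 0.44, adjusted p = 0.529). Both genes overlapped between the genotypes. Pmaip1 (NOXA) had a log2 fold change of 0.34 and the death receptor gene Fas one of -0.34, at between 0.618 and 2.06 CPM, and Eda2r was detected in 1 of the 6 mice, at 0.243 CPM. Of 25 tested regulators and relatives of p53, 14 were higher, 11 lower and 1 was a DEG (median 0.02), beside 0.912% of all tested genes. The log2 fold changes of the checkpoint kinase gene Chek2 and of Trp53bp1, which encodes the damage adaptor 53BP1, were -0.04 and -0.19. The DEG was Trp53i11, named as a p53-inducible gene, which rose from 6.75, 2.28 and 4.01 CPM to 10.7, 13.2 and 16.1 CPM. Its groups did not overlap (log2 fold change 1.63, SE 0.288, adjusted p = 0.0104), and without Trp53+/- replicate 24 its adjusted p was 0.072.

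The 8 genes that fell included a pair known as outputs of erythropoietin signalling. Fam132b, now called Erfe, encodes erythroferrone, the hormone that erythroblasts release after erythropoietin to lower hepcidin and free iron. It lay at 57.2, 38.0 and 60.3 CPM in the Trp53+/+ mice and at 25.8, 18.9 and 14.8 CPM in the Trp53+/- mice, without overlap. It fell by 62.1% (log2 fold change -1.40, SE 0.189, adjusted p = 0.00141) and was called in every alternative that tested it. All alternatives drew on the same control group. The Ddx41+/- Trp53+/+ mice, at 24.5 and 21.8 CPM, lay within the range of these Trp53+/- mice. The part of Trp53 heterozygosity in the fall thus cannot be told from a high control group. The gene lies at chr1:91366430-91374217 on the plus strand, and its exons overlap those of Ilkap on the opposite strand. Cish encodes CIS, a STAT5-induced inhibitor of cytokine receptor signalling, at chr9:107296026-107302784 on the plus strand. It was at 41.2, 27.7 and 50.6 CPM against 22.4, 17.9 and 20.3 CPM, and the lowest intact mouse lay above the highest heterozygous one. It fell by 49.3% (log2 fold change -0.98, SE 0.171, adjusted p = 0.00931). Its exons overlap the antisense genes Gm17040 and Gm17041, whose reads cannot be told apart from its own if strand was not used, and without Trp53+/- replicate 24 its adjusted p was 0.052.

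The start of Cish is shown because STAT5 binds the letters TTCNNNGAA (a GAS motif, the same on both strands), and 2 copies stand there side by side. The stretch is RefSeq sequence of GRCm38.p6, chr9:107296619-107296688, plus strand, with the 2 matches in capitals. The first is at the RefSeq start base, which lies inside the gene interval given above, and the second 11 bases after it.
Cish: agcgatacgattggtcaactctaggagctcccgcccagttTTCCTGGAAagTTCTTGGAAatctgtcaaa
Such a match occurred in 8.30% of the 32851 RefSeq windows from 250 bases before to 50 bases after a start. The window of Erfe held none. The matches describe the sequence and were not tested for binding. A list of 20 erythropoietin and STAT5 genes, drawn up after these values had been seen, gave no further DEG. Of its 18 tested members 11 were higher and 7 lower, and its median log2 fold change was 0.07. The 2 that fell as DEGs were Cish and Fam132b, beside 0.0675% of all tested genes called lower.

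The other 6 genes that fell had unrelated roles. Eps8l1, an actin regulator of the EPS8 family, lay at 29.5, 19.9 and 18.3 CPM against 11.4, 9.89 and 10.5 CPM, without overlap (log2 fold change -1.10, SE 0.191, adjusted p = 0.00931). Its adjusted p was 0.0554 without Trp53+/- replicate 24, and it overlaps Gm15494 on the opposite strand. Atp1b2, the gene for a beta subunit of the sodium-potassium ATPase, lay at 37.9, 42.2 and 43.6 CPM against 25.6, 22.3 and 18.9 CPM. Its groups did not overlap, and it was called in every alternative that tested it (log2 fold change -0.90, SE 0.128, adjusted p = 0.00223). Slfn9, a member of the Schlafen family, was at 25.1, 21.04 and 31.3 CPM against 15.7, 12.1 and 14.5 CPM (log2 fold change -0.87, adjusted p = 0.0126). Ckb (brain-type creatine kinase) had a log2 fold change of -0.90 (adjusted p = 0.0450), AF251705 one of -0.92 (adjusted p = 0.0395) and 2610507I01Rik one of -0.87 (adjusted p = 0.025). None of these 4 genes overlapped between the genotypes. The call of Slfn9 was lost without Trp53+/- replicate 23 or 24. That of Ckb was lost when any single mouse was left out, that of AF251705 when any but Trp53+/+ replicate 11 was, and that of 2610507I01Rik when any but Trp53+/+ replicate 12 was, with adjusted p up to 0.28, 0.263 and 0.119.

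The neighbourhood of Trp53 held several DEGs. Of 356 tested genes within 15 Mb, 9 were called (2.53%), 6 of which rose and 3 of which fell, beside 0.862% of the other 11490 tested genes. Within 5 Mb there were 2 of 118 (1.69%), and on all of chromosome 11 there were 15 of 1032 (1.45%). The difference between these shares was not tested, since neighbouring genes are not independent. The median log2 fold change within 15 Mb was -0.01, so the region as a whole was not shifted. The count of 9 became 5 without Trp53+/- replicate 23 and 5 without replicate 24. Atp1b2, at chr11:69599736-69605942 on the minus strand, lies 0.00786 Mb beyond the end of Trp53. In order along the chromosome the DEGs were Larp1, Igtp, Irgm2, 2610507I01Rik, Myo15, Grap, Atp1b2, Spns3 and Slfn9, from 11.5 Mb before Trp53 to 13.4 Mb after it. Zfp39, Alkbh5 and Trp53 passed the adjusted p and not the fold limit, with log2 fold changes of -0.41, 0.42 and -0.42.

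**Figure D3:**
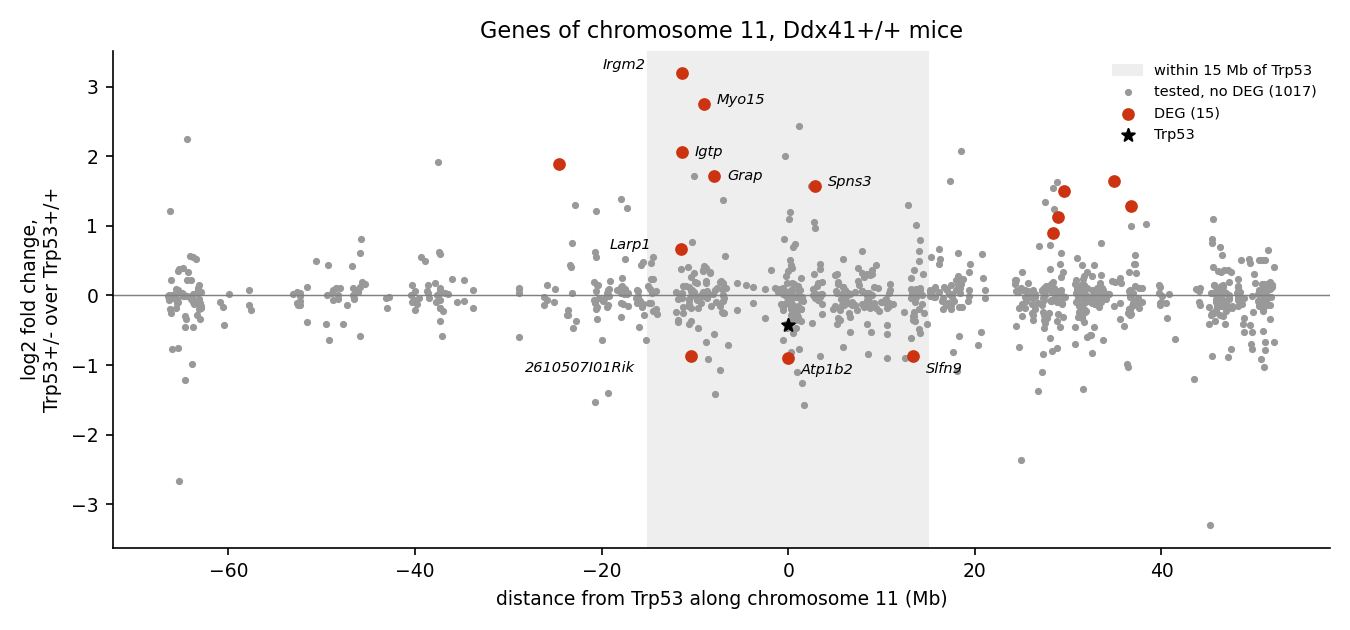
Distance from Trp53 along chromosome 11 (x axis, Mb) against the log2 fold change of Trp53+/- over Trp53+/+ in the Ddx41+/+ mice (y axis) for 1032 tested genes, with the 15 DEGs in red, Trp53 as a star and the region within 15 Mb shaded. The 9 named DEGs in the shaded region lie on both sides of 0, from -0.90 for Atp1b2 to 3.19 for Irgm2.

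Igtp (Irgm3) and Irgm2 encode immunity-related GTPases, which interferon gamma induces and which act at the vacuoles of intracellular parasites. Igtp, at chr11:58199556-58207591, was at 36.0, 34.9 and 61.8 CPM in the Trp53+/+ mice and at 165, 216 and 169 CPM in the Trp53+/- mice. Irgm2, at chr11:58199618-58222782, was at 17.5, 12.2 and 26.7 CPM against 151, 199 and 158 CPM. Neither gene overlapped between the genotypes. Igtp rose 4.17-fold (log2 fold change 2.06, SE 0.173, adjusted p = 8.41e-06) and Irgm2 9.15-fold (log2 fold change 3.19, SE 0.191, adjusted p = 1.69e-07), and both were called in every alternative that tested them. The annotated exons of the 2 genes overlap on the same strand and 8.4% of Igtp's and 4.3% of Irgm2's 75-base stretches occur elsewhere, so the split of reads between them is uncertain. Their starts are shown because the genes moved together and hold matches to elements that interferon-activated factors bind: the GAS motif, and the core of the interferon-stimulated response element (ISRE), searched on both strands as GAAA, any 2 bases and GAAA again. The stretches are RefSeq sequence of GRCm38.p6 on the plus strand, chr11:58199471-58199571 for Igtp and chr11:58214862-58214962 for Irgm2, with both matches in capitals, GAS first.
Igtp: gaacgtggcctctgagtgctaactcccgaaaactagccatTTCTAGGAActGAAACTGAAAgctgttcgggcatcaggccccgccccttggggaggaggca
Irgm2: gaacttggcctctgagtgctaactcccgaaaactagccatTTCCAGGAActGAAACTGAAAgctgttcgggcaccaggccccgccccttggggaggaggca
The 2 stretches of 101 bases were identical at 98 positions (97%). In Igtp the GAS match began 45 bases and the ISRE match 34 bases before the RefSeq start, and in Irgm2 75 and 64 bases before it. The RefSeq start of Irgm2 lies inside the gene interval given above. The ISRE core occurred in 3.44% of the RefSeq windows.

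No other member of a fixed list of interferon-stimulated genes was a DEG, and DEGs outside that list were not sorted by response to interferon. Of 54 tested members of that list, 17 were higher and 37 lower, and the median log2 fold change was -0.10. Igtp and Irgm2 were the 2 DEGs among the 54, beside 0.912% of all tested genes. The log2 fold changes were -0.27 for Isg15, -0.36 for Ifit1, -0.04 for Ifit3 and -0.34 for Irf7, and 41.1% of the 75-base stretches of Ifit3 occur elsewhere. The summed level of the list overlapped, at 5093 to 6925 CPM in the Trp53+/+ mice and 5298 to 6384 CPM in the Trp53+/- mice.

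Myo15 (now Myo15a, the myosin of the inner ear's stereocilia), at chr11:60469339-60528369 on the plus strand, rose from 2.95, 5.93 and 4.50 CPM to 24.3, 42.3 and 23.7 CPM. The groups lay far apart, and the gene was called in every alternative that tested it (log2 fold change 2.75, SE 0.247, adjusted p = 1.69e-05). Larp1, an RNA-binding regulator of ribosomal protein mRNAs, was at 140, 140 and 143 CPM against 230, 228 and 211 CPM (log2 fold change 0.66, SE 0.0786, adjusted p = 0.000466). The 78 tested cytosolic ribosomal protein genes held no DEG, 68 of them were lower, and their median log2 fold change was -0.07. Grap, an adaptor of the GRB2 family, was at 3.22, 1.56 and 1.25 CPM against 6.30, 5.87 and 7.86 CPM, and Spns3 was at 2.58, 0.778 and 1.59 CPM against 4.2, 5.69 and 4.83 CPM. Both pairs of groups were separate, and both calls were lost when any single mouse but Trp53+/+ replicate 10 was left out (adjusted p up to 0.158 and 0.17).

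Away from chromosome 11, Slc15a2 went from near the floor to a clear level. It encodes PEPT2, a transporter of small peptides, at chr16:36750177-36784962 on the minus strand. It was at 0.686, 0.583 and 0.968 CPM in the Trp53+/+ mice and at 63.3, 56.6 and 82.2 CPM in the Trp53+/- mice (log2 fold change 6.52, SE 0.472, adjusted p = 1.44e-06), and it was called in every alternative that tested it. Magi1, which encodes a scaffold protein of cell junctions, had 1 count over the 3 intact mice and 87, 31 and 305 counts in the heterozygous mice. The levels in the heterozygous mice were 8.70, 1.92 and 17.8 CPM, so the spread within that genotype was wide. The ratio of the summed counts, scaled for library size, was 527 with an exact 95% counting interval of 94.0 to 20854, which covers counting error only. In the Ddx41+/- mice Magi1 was no higher than the floor, at 0.182 and 0 CPM with Trp53+/+ and 0.116 and 0.0561 CPM with Trp53+/-. The rise was thus not seen in those Trp53+/- mice, although the difference between the Ddx41 genotypes did not pass the test (adjusted p = 0.745). Mybpc2, a myosin-binding protein gene, had 3 counts in all over the intact mice and 11, 13 and 18 counts in the heterozygous mice, a ratio of 17.4 with a counting interval of 5.57 to 87.9. Its call was lost when any single mouse but Trp53+/+ replicate 11 was left out (adjusted p up to 0.155).

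The remaining genes with the largest rises were signalling and transcription genes at low levels. Smad7, the inhibitory SMAD of TGF-beta signalling, rose from 2.64, 2.48 and 3.74 CPM to 10.7, 12.5 and 12.9 CPM, without overlap (log2 fold change 2.05, SE 0.223, adjusted p = 0.000199). Mid1, a microtubule-associated ubiquitin ligase gene of the X chromosome, rose from 1.37, 1.17 and 1.45 CPM to 6.70, 11.4 and 4.31 CPM (log2 fold change 2.50, SE 0.337, adjusted p = 0.00141), and 22.7% of its 75-base stretches occur elsewhere. Zbtb10, a zinc finger gene, rose from 0.844, 1.02 and 2.08 CPM to 4.80, 7.97 and 5.59 CPM (log2 fold change 2.27, adjusted p = 0.00179). These 3 genes were separate between the genotypes and called in every alternative that tested them. Lef1, a transcription factor of the WNT pathway in lymphocytes, was at 0.686, 0.243 and 1.18 CPM against 3.50, 2.97 and 3.73 CPM (log2 fold change 2.32, adjusted p = 0.0154). Slc9a7, a sodium-proton exchanger gene, had a log2 fold change of 2.36 (adjusted p = 0.0472) and Capn11, a calpain gene, one of 2.07 (adjusted p = 0.0401). All 3 were again separate between the genotypes, and their calls were lost without Trp53+/- replicate 24, that of Slc9a7 without any other single mouse too and that of Capn11 also without Trp53+/+ replicate 10 or 11 or Trp53+/- replicate 22, with an adjusted p of up to 0.192 for Slc9a7, 0.19 for Capn11 and 0.0924 for Lef1 over all alternatives. In the Ddx41+/- mice Capn11 was at 0 and 0 CPM with Trp53+/+ and at 0 and 0.112 CPM with Trp53+/-. Its rise was thus not seen in those Trp53+/- mice, although the difference between the Ddx41 genotypes did not pass the test. Nnt, the mitochondrial transhydrogenase gene in which the C57BL/6J strain carries a deletion, was picked out after its values were seen. It rose from 5.01, 5.35 and 6.78 CPM to 11.1, 13.4 and 13.9 CPM, without overlap (log2 fold change 1.17, SE 0.182, adjusted p = 0.00417). The study's methods place its mouse strains on C57BL/6N, and the annotation holds a second, overlapping model of the same name.

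B cell genes were higher in the Trp53+/- mice as a group. All 10 tested markers were higher, beside 50.1% of all tested genes, and their median log2 fold change was 1.29. Of these markers 5 were DEGs, beside 0.844% of all tested genes called higher. Cd79a, a signalling chain of the B cell receptor, was at 18.5, 10.98 and 22.9 CPM against 40.7, 35.8 and 47.1 CPM (log2 fold change 1.25, SE 0.214, adjusted p = 0.00794). Replicate 11 was the lowest mouse, and the groups did not overlap. Ebf1, the transcription factor that commits cells to the B lineage, rose from 3.48, 2.33 and 4.57 CPM to 11.2, 11.9 and 14.8 CPM (log2 fold change 1.89, SE 0.284, adjusted p = 0.00319). Vpreb3 and Ms4a1 (CD20) were also DEGs, with log2 fold changes of 1.75 and 1.24, whereas the antigen presentation gene Cd74 had one of 0.34 and was not called (adjusted p = 0.56). The list held 3 DEGs without Trp53+/- replicate 24, where Cd79a (adjusted p = 0.052) and Ms4a1 were lost, and Ms4a1 was also lost without Trp53+/+ replicate 10 or 11.

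Further B lineage genes among the DEGs were noticed after their values were seen: the transcription factor and co-activator genes Pou2af1, Spib and Irf4 (log2 fold changes 1.74, 1.46 and 1.63), the kinase gene Blk (1.35), the receptor gene Fcer2a (1.15) and the BAFF receptor gene Tnfrsf13c (1.21). The calls of Pou2af1, Spib and Irf4 held in every alternative, and that of Blk was lost without Trp53+/- replicate 24. That of Fcer2a was lost without Trp53+/- replicate 24 or any 1 of the Trp53+/+ mice, that of Tnfrsf13c when any single mouse but Trp53+/+ replicate 10 was left out, and both in the fit of the 6 libraries. The summed level of the 10 B cell markers in the table, none of them at 0 in any mouse, was 345, 206 and 224 CPM in the Trp53+/+ mice and 365, 404 and 441 CPM in the Trp53+/- mice. The sums did not overlap, although the nearest pair, 345 and 365 CPM, lay close together, and most of the sum was Cd74. In the Ddx41+/- mice the same sum was 344 and 489 CPM with Trp53+/+ and 455 and 398 CPM with Trp53+/-, so the 2 lowest values of all 10 mice were Trp53+/+ replicates 11 and 12. Whether a higher sum came from more B cells in the sorted gate or from more of this RNA per cell cannot be told apart in bulk RNA, and the part of B cells in the other DEGs was not tested.

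**Figure D4:**
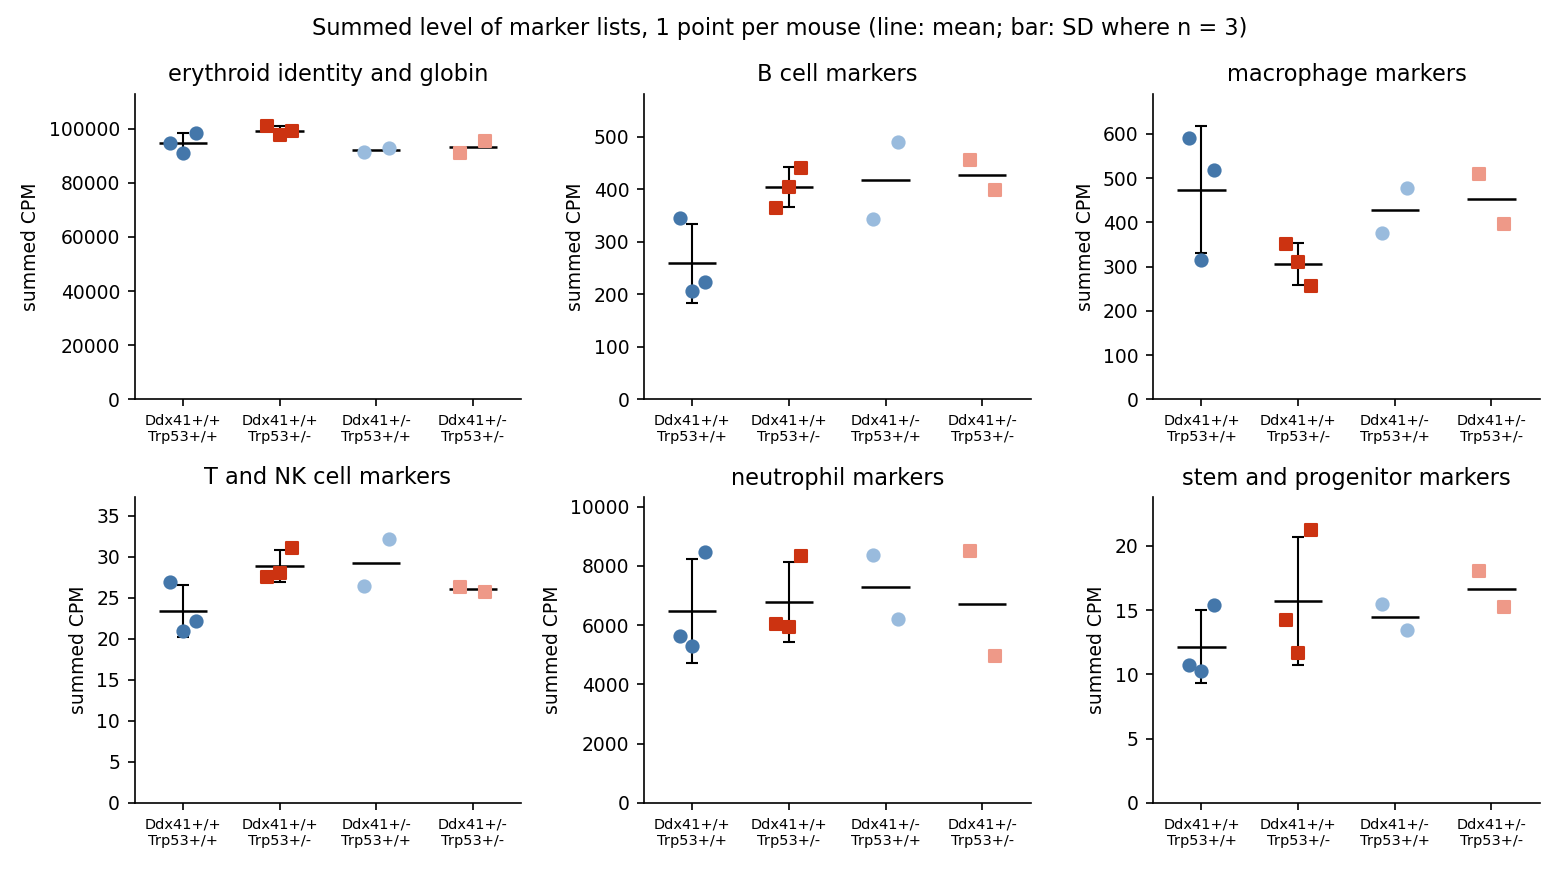
Summed CPM of 6 marker lists (y axes, each from 0) in the 4 genotypes, 1 point per mouse, with the mean as a line and, where n = 3, the SD as a bar. The B cell sum runs from 206 to 345 CPM in the Ddx41+/+ Trp53+/+ mice and from 365 to 441 CPM in the Ddx41+/+ Trp53+/- mice, while the Ddx41+/- mice lie between 344 and 489 CPM irrespective of Trp53.

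Markers of other cells gave no DEG with all mice included. All 10 macrophage markers were lower, at a median log2 fold change of -0.57. Of them 8 had an unadjusted p under 0.05 (beside 9.44% of all tested genes), while 1 did not overlap between the genotypes (beside 14.1%). Vcam1 (an adhesion molecule of central macrophages) had a log2 fold change of -0.73, C1qb (complement) -0.57 and Adgre1 (F4/80) -0.56. The haem oxygenase gene Hmox1, abundant in macrophages but listed with the antioxidant genes, had one of -0.55. The sum of the 10 macrophage markers was 590, 314 and 518 CPM against 351, 310 and 257 CPM, and Trp53+/+ replicate 11 lay among the heterozygous mice. Without that mouse 40 of all tested genes were called lower. They included 6 of the 10 macrophage markers, Vcam1 and Adgre1 among them (log2 fold changes -0.99 and -0.83, adjusted p = 0.00732 and 0.0126). All 9 tested T and NK cell markers were higher (median 0.55; Cd3e 1.53, adjusted p = 0.615), and 9 of 10 neutrophil markers were higher (median 0.12; S100a8 0.06, S100a9 0.00, Mpo 0.28). Of 7 stem and progenitor markers 6 were higher (median 0.49; Kit 0.14, Cd34 1.09), and the 4 tested megakaryocyte markers split evenly (median 0.01; Itga2b -0.13, Pf4 1.10). Cpa3 and Prss34, proteases of mast cells and basophils picked out with their values in view, were DEGs with log2 fold changes of 1.36 and 1.10, and the call of Prss34 was lost when any single mouse was left out and that of Cpa3 when any but Trp53+/- replicate 22 was (adjusted p up to 0.112 and 0.245). Whether any of these cells contributed to the DEGs was not tested.

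Immediate-early genes, which respond to stimulation within minutes and also to tissue handling, leaned upward. Of 28 tested members 25 were higher and 3 lower, with a median log2 fold change of 0.35, 14 had an unadjusted p under 0.05 (beside 9.44% of all tested genes) and 2 were DEGs (beside 0.912%). The list held between 0 and 4 DEGs when 1 mouse was left out, 0 without Trp53+/+ replicate 10 or Trp53+/- replicate 23 or 24, 1 without Trp53+/+ replicate 11 and 4 without Trp53+/+ replicate 12. Csrnp1, a transcription factor gene, rose from 13.5, 13.6 and 14.9 CPM to 19.6, 24.6 and 21.9 CPM, without overlap (log2 fold change 0.66, SE 0.125, adjusted p = 0.0143). Egr3 rose from 0.738, 0.632 and 0.968 CPM to 1.70, 2.97 and 2.68 CPM (log2 fold change 1.68, adjusted p = 0.0395). Both calls were lost in the fit of the 6 libraries and without Trp53+/+ replicate 10 or Trp53+/- replicate 23 or 24, that of Egr3 also without Trp53+/+ replicate 11. The better known members were not called: log2 fold changes were 0.71 for Egr1 (adjusted p = 0.255), 0.32 for Jun, 0.31 for Junb, 0.00 for Fos, -0.02 for Atf3 and 0.20 for Nr4a1.

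Of 41 tested innate inflammatory genes, 27 were higher and 14 lower (median 0.08), beside 50.1% higher over all tested genes. Among the 41, 4 rose as DEGs, beside 0.844% of all tested genes. Cd14, the lipopolysaccharide co-receptor, rose from 6.80, 7.34 and 8.44 CPM to 16.2, 19.9 and 21.4 CPM, without overlap, and was called in every alternative that tested it (log2 fold change 1.36, SE 0.215, adjusted p = 0.00477). Nfkbia and Tnfaip3 encode IkB-alpha and A20, which NF-kB induces and which restrain it. Nfkbia was at 70.9, 93.4 and 72.1 CPM against 110, 166 and 118 CPM (log2 fold change 0.74, SE 0.141, adjusted p = 0.0154), and Tnfaip3 at 55.2, 51.6 and 45.4 CPM against 63.6, 108 and 82.7 CPM (log2 fold change 0.75, SE 0.139, adjusted p = 0.0136). In both, replicate 23 was the highest of the 6 mice and the groups were separate. Without that mouse neither was called, and Nfkbia was also lost without Trp53+/+ replicate 10 or 12, Tnfaip3 without Trp53+/- replicate 24 and in the fit of the 6 libraries. Il1r2, the interleukin 1 decoy receptor, had a log2 fold change of 0.91 (adjusted p = 0.0423) that missed the threshold when any single mouse was left out. Il1b itself had a log2 fold change of -0.62 (adjusted p = 0.328) and Nlrp3 one of 0.20.

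Lists of cell cycle, DNA repair, death-regulating, antioxidant and heat-shock genes held no DEG with all mice included. The antioxidant list, which includes Hmox1 (given above), held up to 1 DEG when a single mouse was left out. The cell cycle genes were split, with 23 of 48 higher (median -0.01; Mki67 0.01, Ccna2 0.11, Ccnb1 -0.10, Ccnd3 0.02, Ccne1 -0.05), and 35.2% of the 75-base stretches of Ccnb1 occur elsewhere. Of 41 DNA repair genes 29 were lower (median -0.06; Brca1 -0.02, Parp1 0.15). Of 18 BCL2 family genes 8 were higher (median -0.05), including the survival genes Bcl2l1 (BCL-XL, 0.08) and Mcl1 (0.05), while the death-promoting Bcl2l11 (BIM) had a log2 fold change of -0.02 and the mitophagy gene Bnip3l one of 0.03. Of 25 antioxidant and ferroptosis genes 15 were lower (median -0.03; Gpx4 -0.07, Prdx2 -0.04, Cat 0.11, Sod2 0.07, Slc7a11 0.07), and 55.3% of the 75-base stretches of Gpx4 occur elsewhere. Of 21 heat-shock genes 11 were higher (median 0.03; Hspa1a -0.08, Hspa1b 0.05, Hsph1 0.20, Dnajb1 0.19), and of the near-identical Hspa1a and Hspa1b, 54.2% and 55.8% of the 75-base stretches occur elsewhere.

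The 2 Ddx41+/- Trp53+/- and 2 Ddx41+/- Trp53+/+ mice, replicates 46 and 47 and replicates 32 and 34, gave the same contrast between other animals, which had shared the fit and its estimate of the spread with the 6 mice above. There, 20 genes were DEGs (0.169%; 641 at an unadjusted p under 0.05). Of the 100 genes that rose with Ddx41+/+, 82 were higher there too (82%, beside 49.1% of all tested genes), but the median log2 fold change of the 100 was 0.30 in place of 1.36. The 82 include any log2 fold change over 0, and Capn11 is among them at 0 and 0 CPM against 0 and 0.112 CPM. Of the 8 that fell 6 were lower there, with a median of -0.65. The 2 sets of DEGs shared 6 genes, 5.56% of the 108 and 30% of the 20. Of these 6, 5 changed in the same direction and Cdk5rap1 in the opposite one, and 4 lie within 15 Mb of Trp53.

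Igtp, Irgm2, Myo15 and Atp1b2 gave nearly the same levels in both Ddx41 genotypes. Irgm2 was at 20.3 and 22.7 CPM in the Ddx41+/- Trp53+/+ mice and at 166 and 180 CPM in the Ddx41+/- Trp53+/- mice (log2 fold change 3.02, adjusted p = 9.95e-06). The log2 fold changes of Igtp, Myo15 and Atp1b2 there were 1.89, 2.70 and -0.95 (adjusted p = 0.000173, 0.00023 and 0.0125), and no difference between the Ddx41 genotypes passed the test. Slc15a2 was at 15.1 and 1.65 CPM against 88.1 and 63.9 CPM (log2 fold change 3.0, adjusted p = 0.0025), so 1 Ddx41+/- Trp53+/+ mouse had a level that no Ddx41+/+ Trp53+/+ mouse reached. Larp1 and Nnt had log2 fold changes of 0.49 and 1.06 there and missed the threshold (adjusted p = 0.0595 and 0.125). The remaining DEGs near Trp53 were not called there either. Slfn9 went the other way, at 11.6 and 12.8 CPM against 14.1 and 16.7 CPM (log2 fold change 0.35, adjusted p = 0.946). All of these values lay below those of the Ddx41+/+ Trp53+/+ mice. Grap, Spns3 and 2610507I01Rik had log2 fold changes of 0.29, 0.03 and -0.78 (adjusted p = 0.981, 0.996 and 0.349). Csrnp1 was at 26.5 and 27.2 CPM against 27.0 and 24.3 CPM, and Cd14 at 26.3 and 17.9 CPM against 29.0 and 15.7 CPM. Both genes overlapped between the Trp53 genotypes there and lay in all 4 mice above the range of the Ddx41+/+ Trp53+/+ mice.

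Trp53 was at 59.2 and 68.1 CPM against 40.3 and 46.2 CPM in the Ddx41+/- mice (log2 fold change -0.55, adjusted p = 0.063). Cdkn1a was at 16.6 and 15.6 CPM against 5.87 and 4.99 CPM, a log2 fold change of -1.57 that was called there (adjusted p = 0.00973). The difference from the -0.50 found with Ddx41+/+ was 1.07 and did not pass the test (adjusted p = 0.672). Cish was at 36.6 and 33.4 CPM against 20.2 and 20.8 CPM (log2 fold change -0.78, adjusted p = 0.29) and Fam132b at 24.5 and 21.8 CPM against 16.7 and 14.1 CPM (log2 fold change -0.60, adjusted p = 0.845), without overlap in either gene and without a call. The B cell gene Cd79a had a log2 fold change of 0.08 there, and Ccng2, Trp53i11 and Smad7 ones of 0.17, 0.43 and 0.40, none of them called and none shown to differ from the values with Ddx41+/+.

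**Figure D5:**
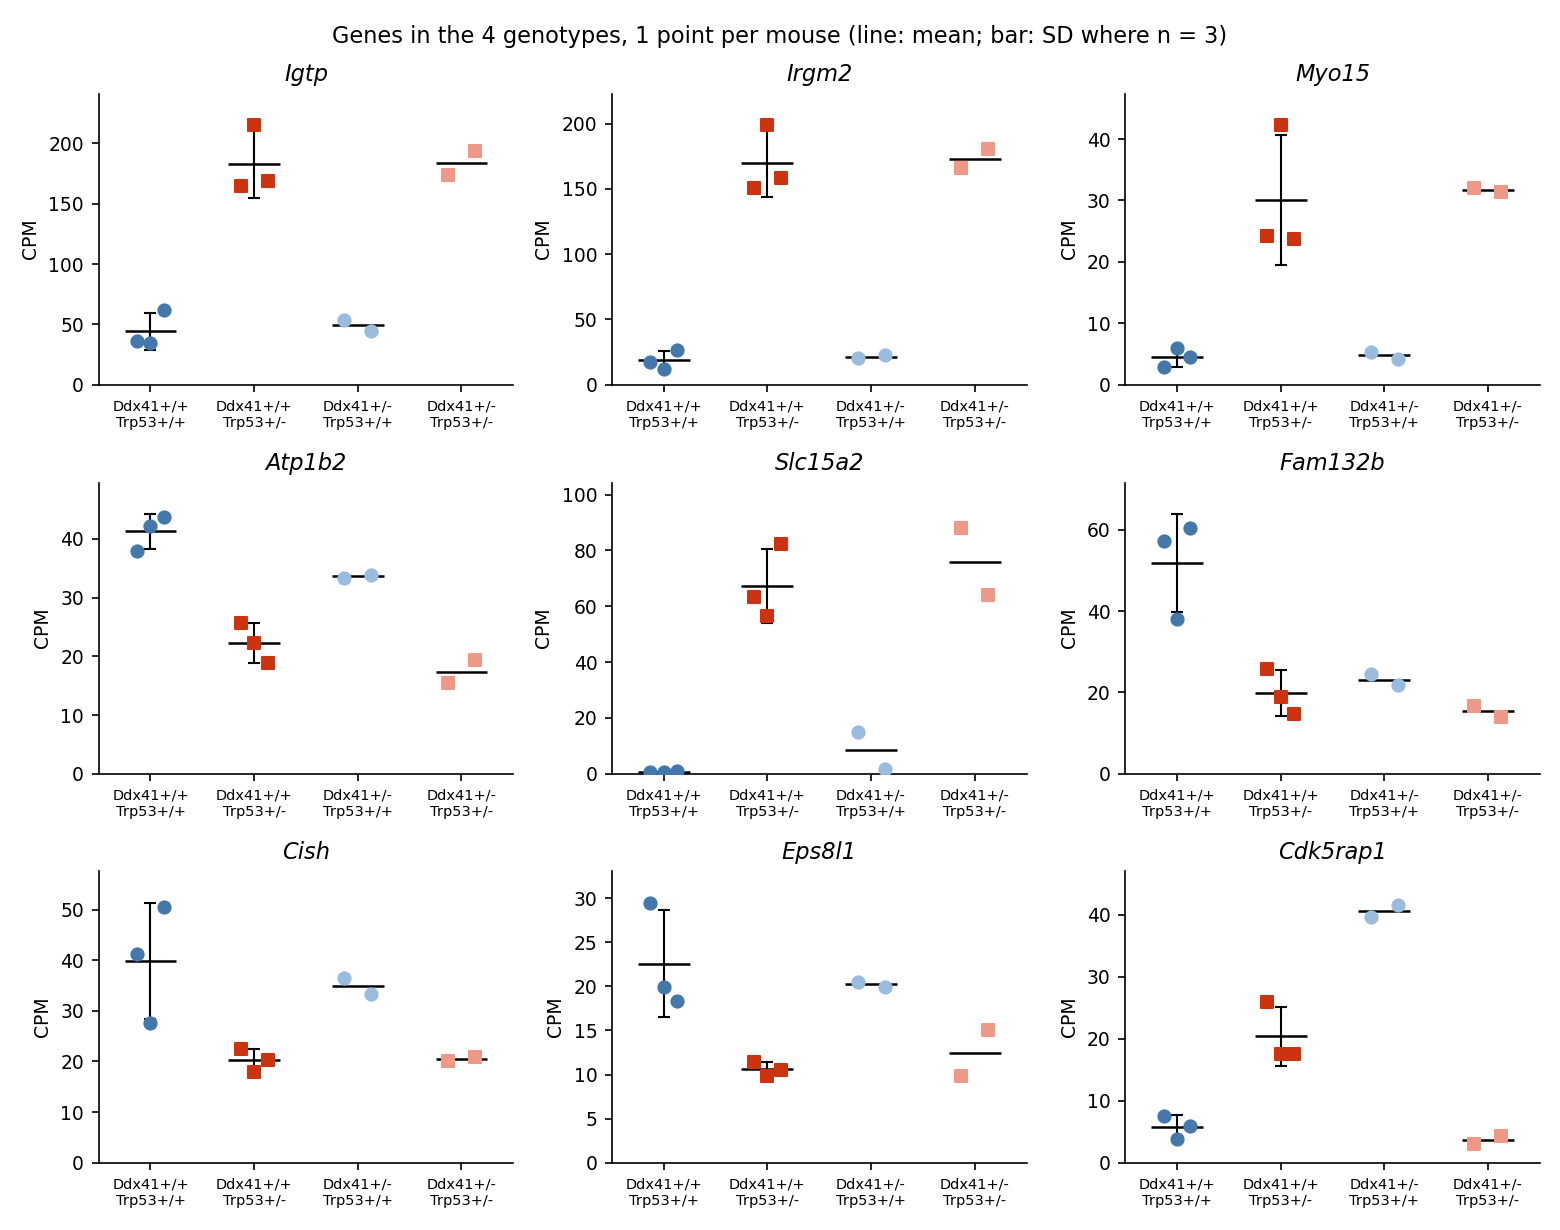
Level in CPM (y axes, each from 0) of 9 DEGs in the 4 genotypes, 1 point per mouse, with the mean as a line and, where n = 3, the SD as a bar. Igtp, Irgm2 and Myo15 are high and Atp1b2 low in Trp53+/- mice of both Ddx41 genotypes, Fam132b is high in the Ddx41+/+ Trp53+/+ mice alone, and Cdk5rap1 moves in opposite directions.

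A test of the difference between the 2 contrasts called 8 genes (0.0675%, with 593 at an unadjusted p under 0.05). Of these, 2 were DEGs with Ddx41+/+. Cdk5rap1, a tRNA-modifying enzyme gene, rose from 7.59, 3.84 and 5.95 CPM to 25.9, 17.6 and 17.6 CPM with Ddx41+/+ (log2 fold change 1.81, SE 0.222, adjusted p = 0.000576). With Ddx41+/- it was at 39.6 and 41.5 CPM against 2.96 and 4.26 CPM, the opposite direction. Mid1, described above, was at 18.8 and 29.8 CPM against 13.2 and 17.4 CPM with Ddx41+/-. For Srpk2, Nap1l1, Ints10, Gcdh and Clgn, the log2 fold changes with Ddx41+/+ were 0.47, 0.00, -0.06, -0.05 and 1.03, none of them called, and the 2 Ddx41+/- Trp53+/+ mice stood apart from the other mice in each.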

How the data were processed

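The authors deposited raw counts per gene. The submitters' processing notes name FastQC 0.11.7, HISAT2 2.0.5, featureCounts 1.5.2 and mm10, and the table's name records that 2 further mice were removed. The labels name a stranded TruSeq kit and the methods an unstranded one, and the strand setting of the counting is not given in the sources used here. The deposited counts were filtered with filterByExpr, which removed 12575 of 24421 genes, scaled by TMM and fitted with edgeR 4.0.16 (quasi-likelihood F-test, two-sided, Benjamini-Hochberg adjustment over all 11846 tested genes) in R 4.3.3, with 1 mean per genotype over all 10 libraries. Groups came from the genotype labels, which give no batch. Each replicate is 1 mouse, and replicates of a genotype differed by more than counting noise (chi-square per degree of freedom 6.35 to 16.2). Named genes are Trp53, Ddx41, up to 12 DEGs with the largest change in each direction, fixed and called members of 20 lists, and 6 genes of the interaction. Another 14 genes were named after their values were seen, and some members that the rule names are not reported here. Members and lists were chosen with earlier results of these data known. On simulated counts for 11678 genes, 70% of genes raised by 1 on the log2 scale and 64.6% of those lowered by 1 were recovered, and 0.061% of unchanged genes were called. Positions came from GENCODE release 21 for mouse or RefSeq, for 11781 of the tested genes. Alternatives were DESeq2 1.42.0, edgeR's likelihood ratio test, other scaling, filters, thresholds and regions, the 6 libraries alone, and leaving out each mouse.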

Additional observations from a re-analysis of the deposited data

Results flagged for a closer look

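A test of whether the effect of Trp53 heterozygosity differed between the Ddx41 genotypes singled out 7 named genes. The difference, as the log2 fold change with Ddx41+/+ minus that with Ddx41+/-, was 5.29 for Cdk5rap1 (1.81 against -3.48, adjusted p = 1.3e-06 by edgeR), 3.01 for Srpk2 (0.47 against -2.53, adjusted p = 0.000227) and 3.15 for Mid1 (2.50 against -0.65, adjusted p = 0.00715). It was 7.01 for Clgn (1.03 against -5.99, adjusted p = 0.00118), whose Ddx41+/+ values are near the floor. It was -1.07 for Nap1l1, -1.27 for Ints10 and -1.32 for Gcdh (adjusted p = 0.000387 for each), with log2 fold changes of 1.07, 1.2 and 1.27 with Ddx41+/-. Each rests on 2 mice per Ddx41+/- genotype.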

How the results depend on the processing

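No paired analysis was possible because the genotypes share no replicate numbers. DESeq2's size factors (108 DEGs), a minimum of 10 counts in every library (98) and no fold limit (117) left the total within 1.5 times. DEGs numbered 161 with DESeq2's Wald test (135 higher, 26 lower), 219 with the likelihood ratio test (174, 45), 250 without a filter (187, 63), 66 with the 6 libraries alone (60, 6) and 535 at an unadjusted p (341, 194). For the difference between the Ddx41 genotypes the Wald test, the likelihood ratio test, no filter and the unadjusted p gave 29, 34, 100 and 378 genes (the 6 libraries alone cannot give it) and for B cell markers 8, 9, 9 and 9 DEGs, and around Trp53 there were 18 at an unadjusted p, 2 within 5 Mb and 15 on chromosome 11. Leaving out 1 mouse gave 35 to 115 DEGs, 33 to 106 higher, 2 to 40 lower, 5 to 8 near Trp53, 3 to 7 B cell markers, 0 to 6 macrophage markers, 0 to 4 immediate-early genes, 8 to 12 for the difference and a Trp53 change of -0.45 to -0.40, past the threshold in none. With the 6 libraries alone Trp53 changed by -0.43 (adjusted p = 0.0511). The causes were not tested. No called gene reversed. Leaving out 1 mouse turned the sign of 34 named genes that were not called, with these lowest and highest log2 fold changes: Alas2 -0.0093 to 0.11, Atf3 -0.25 to 0.10, Bcl2l1 -0.017 to 0.14, Bcl2l11 -0.044 to 0.014, Bnip3l -0.042 to 0.12, Brca1 -0.064 to 0.0069, Ccnd3 -0.042 to 0.070, Ccne1 -0.11 to 0.010, Chek2 -0.12 to 0.034, Ddx41 -0.0093 to 0.12, Eda2r -4.16 to 0, Epor -0.040 to 0.083, Fas -0.74 to 0.052, Fos -0.44 to 0.30, Gata1 -0.013 to 0.079, Gcdh -0.15 to 0.0091, Hspa1a -0.46 to 0.44, Hspa1b -0.28 to 0.46, Ifit3 -0.63 to 0.43, Ints10 -0.12 to 0.046, Itga2b -0.34 to 0.028, Kit -0.16 to 0.46, Mdm2 -0.085 to 0.0058, Mki67 -0.026 to 0.057, Mpo -0.25 to 0.59, Nap1l1 -0.057 to 0.060, Nlrp3 -0.0059 to 0.36, Nr4a1 -0.14 to 0.34, S100a8 -0.21 to 0.36, S100a9 -0.16 to 0.22, Sesn2 -0.14 to 0.057, Slc4a1 -0.0018 to 0.072, Slc7a11 -0.34 to 0.52 and Trp53inp1 -0.13 to 0.077. Fos, at 0.00, also became -0.00043 with DESeq2's Wald test and -0.0010 with the likelihood ratio test.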
